A study of Mus musculus with 9 samples.

Results

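The MHC class I antigen-presentation pathway was followed through 10 of its genes, of the 36410 in the count table, across 3 immortalized mouse striatal cell lines. The genes were taken by symbol: the classical heavy chains *H2-K1* and *H2-D1*, the light chain *B2m*, the peptide transporter genes *Tap1* and *Tap2*, the loading factor *Tapbp*, the inducible proteasome subunits *Psmb8*, *Psmb9* and *Psmb10*, and the transactivator *Nlrc5*. The lines carried the huntingtin gene with 7 glutamine codons on both alleles (STHdhQ7/Q7, control), with 7 on one allele and 111 on the other (STHdhQ7/Q111, HD-het), or with 111 on both (STHdhQ111/Q111, HD-homo). The labels gave the strain of all of them as C57/BL6, and the 111-codon alleles were knock-in alleles, so these huntingtin alleles were not driven by a transgene promoter. Each genotype was represented by 1 cell line, derived from embryos of that genotype, with 3 poly(A) RNA-seq libraries, so the effect of the huntingtin genotype and any other difference between the lines cannot be told apart. The labels do not say whether the libraries came from separate cultures, so the p-values below measure the spread between these libraries, which may be technical.

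MHC class I molecules display peptides from inside the cell to cytotoxic T cells. The proteasome cuts cytosolic proteins, and its inducible subunits replace the constitutive catalytic ones in cells exposed to interferon. The TAP1-TAP2 transporter moves the peptides into the endoplasmic reticulum, tapasin (the product of *Tapbp*) holds the empty heavy chain beside the transporter until a peptide is bound, and beta2-microglobulin is the invariant light chain of the finished complex. NLRC5 acts at the promoters of class I heavy chain genes and of some other genes of the pathway, and neurons normally keep the pathway low.

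The 9 libraries held between 29507665 and 41197931 counts. Levels are given as normalized CPM, counts per 1000000 counts of the library after TMM scaling of the totals, with scaling factors from 0.984 to 1.03. A count of 0 allowed a level of up to 0.071 to 0.101 CPM, depending on the library, if 3 counts are taken as the limit and counting error alone is considered. The labelled cell type was checked against markers. Of 19 striatal neuron genes in the table, 11 stayed under 1 CPM in every library; *Drd1*, the D1 dopamine receptor, had no count in any library, and *Ppp1r1b*, which encodes DARPP-32, reached at most 0.403 CPM. Other genes of that list were expressed, among them *Foxp1* at 87.9 to 179 CPM and *Map2* at 49.97 to 73.4 CPM. *Tubb3* was at 34.7 to 54.1 CPM and *Meis2* at 18.6 to 88.8 CPM. *Stmn2* differed strongly between the lines, with a mean of 53.7 CPM in control, 2.71 CPM in HD-het and 2.75 CPM in HD-homo cells. Of the 11 tested genes of the list, edgeR's quasi-likelihood test called 5 higher and 2 lower in HD-homo against control. In HD-het against control it called 4 higher and 3 lower. The list summed to 307 to 378 CPM. The mesenchymal list of 10 genes summed to 10815 to 11780 CPM in control, 19915 to 22015 CPM in HD-het and 11459.5 to 12381 CPM in HD-homo cells. The vimentin gene *Vim* was between 4117 and 5696 CPM, while other genes of the list differed between the lines in different directions. *Acta2* was at 2056 to 2384 CPM in control, 4931 to 5639 CPM in HD-het and 57.7 to 116 CPM in HD-homo cells. For *Pdgfra* the ranges were 4.19 to 5.72, 3.89 to 5.27 and 301 to 311 CPM, in the same order. Of 20 immune cell genes, 17 stayed under 1 CPM in every library and 6 were at 0 in all of them, among which were *Aif1*, *Adgre1*, *Cd3e* and *Ncr1*, genes of microglia, macrophages, T cells and natural killer cells. The summed level of the immune list was 14.4 to 18.4 CPM in control, 46.3 to 58.3 CPM in HD-het and 16.1 to 17.4 CPM in HD-homo cells. *Tmem119*, listed as a microglial marker, made up most of the sum in HD-het cells, at 41.8 to 51.3 CPM. The other tested genes of the list were low and differed in direction. From control to HD-het, *Cd68* went from 1.64 to 1.93 CPM to 2.62 to 4.79 CPM. *Csf1r* was at 0.404 to 0.654 CPM in control and 0.579 to 0.761 CPM in HD-het. *P2ry12* was lower in HD-het (0.061 to 0.240 CPM) than in control cells (0.338 to 0.560 CPM). Of 12 astrocyte and oligodendrocyte genes, 9 stayed under 1 CPM, and the list summed to 3.62 to 3.83 CPM in control, 2.57 to 3.02 CPM in HD-het and 14.7 to 21.2 CPM in HD-homo cells, mainly through the glutamate transporter gene *Slc1a3*. All 8 endothelial genes stayed under 1 CPM. The part of these genes in the results below was not tested, and in bulk samples fewer cells of a type and less RNA per cell cannot be told apart.

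Of the 10 genes, 7 lie in the MHC on chromosome 17 (GRCm38, GENCODE M21). *Tapbp* is at 33915899 to 33929292 on the plus strand and *H2-K1* at 33996017 to 34000347 on the minus strand. Next come 4 neighbours, *Psmb9* (34181987 to 34187764, minus strand), *Tap1* (34187553 to 34197225, plus), *Psmb8* (34197721 to 34201454, plus) and *Tap2* (34203527 to 34216321, plus). *H2-D1* lies at 35262730 to 35267499 on the plus strand. *B2m* is at 122147686 to 122153083 on chromosome 2 (plus strand), *Nlrc5* at 94434356 to 94527272 (plus) and *Psmb10* at 105935735 to 105938444 (minus) on chromosome 8. *Tap1* and *Psmb9* overlap on opposite strands, with RefSeq start sites 226 bases apart.

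The promoters shown are those of the heavy and light chains, whose products pair in the complex. The other tested members also rose in HD-homo cells, and their promoters are not printed. The bases below are from RefSeq (GRCm38.p6), written 5′ to 3′ on the strand of the gene. Capitals mark matches, on either strand, to an interferon regulatory factor core (AANNGAAA), a kappaB consensus, a CRE half-site (TGACG) and a CCAAT box (CCAAT). The windows are chr17:34000324-34000473 (minus strand) for *H2-K1*, chr17:35262908-35263057 (plus) for *H2-D1* and chr2:122147535-122147709 (plus) for *B2m*.
H2-K1: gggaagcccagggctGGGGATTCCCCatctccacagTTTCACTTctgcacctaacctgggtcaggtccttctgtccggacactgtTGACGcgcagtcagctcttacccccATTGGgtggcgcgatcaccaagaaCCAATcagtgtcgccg
H2-D1: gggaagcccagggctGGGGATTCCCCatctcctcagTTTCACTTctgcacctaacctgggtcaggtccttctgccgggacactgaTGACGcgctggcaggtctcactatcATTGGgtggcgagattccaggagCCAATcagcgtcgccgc
B2m: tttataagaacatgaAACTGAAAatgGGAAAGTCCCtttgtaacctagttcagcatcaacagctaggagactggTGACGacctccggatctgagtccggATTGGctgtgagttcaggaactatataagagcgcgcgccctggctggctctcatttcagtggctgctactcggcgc

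The *H2-K1* and *H2-D1* windows were identical at 133 of 151 aligned positions (88.1%), and each held the kappaB consensus, then the interferon regulatory factor core, the CRE half-site and a pair of CCAAT boxes in the same order. The *B2m* window held the same 4 kinds of match with the first pair in the reverse order and a single CCAAT box. Of the 8 members with a RefSeq promoter of 250 bases before and 50 after the start, only *H2-K1*, *H2-D1* and *B2m* held the interferon regulatory factor core (24.2% of all 27025 promoters held it) or the kappaB consensus (4.35% of all). The CRE half-site was in 5 of them, *Tap1* and *Psmb9* included (21% of all), and the CCAAT box in 6 (37.9% of all). The GAS element TTCNNNGAA was in *Psmb8* alone among the 8, against 8.47% of all promoters. A match describes these letters only.

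The third HD-homo library stood apart for most of these genes. Its level relative to the mean of HD-homo replicates 1 and 2 was 2.67 for *H2-K1*, 2.23 for *H2-D1*, 1.85 for *B2m*, 2.82 for *Tap1*, 2.23 for *Nlrc5*, 3.31 for *Psmb8* and 4.77 for *Psmb9*, but 1.48 for *Tap2*, 1.23 for *Psmb10* and 1.03 for *Tapbp*. At least 1.5 was reached by 6 of the 9 tested members and by 4.93% of all tested genes, whose central 95% ran from 0.570 to 1.83. In the same measure, 2 of the 9 members reached 1.5 in control (*Tap1* and *Psmb8*) and 1 in HD-het cells (*Psmb8*). Several other class I genes were also high in that library, among them *H2-Q4* at 2.67. The entry *H2-L*, whose counts followed those of *H2-D1*, was at 2.28. The constitutive proteasome genes *Psmb5*, *Psmb6* and *Psmb7* were near 1 (0.964 to 1.08), and of the interferon-signalling genes *Irf9* was at 1.44 and *Irf1* at 0.738.

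**Figure D1:**
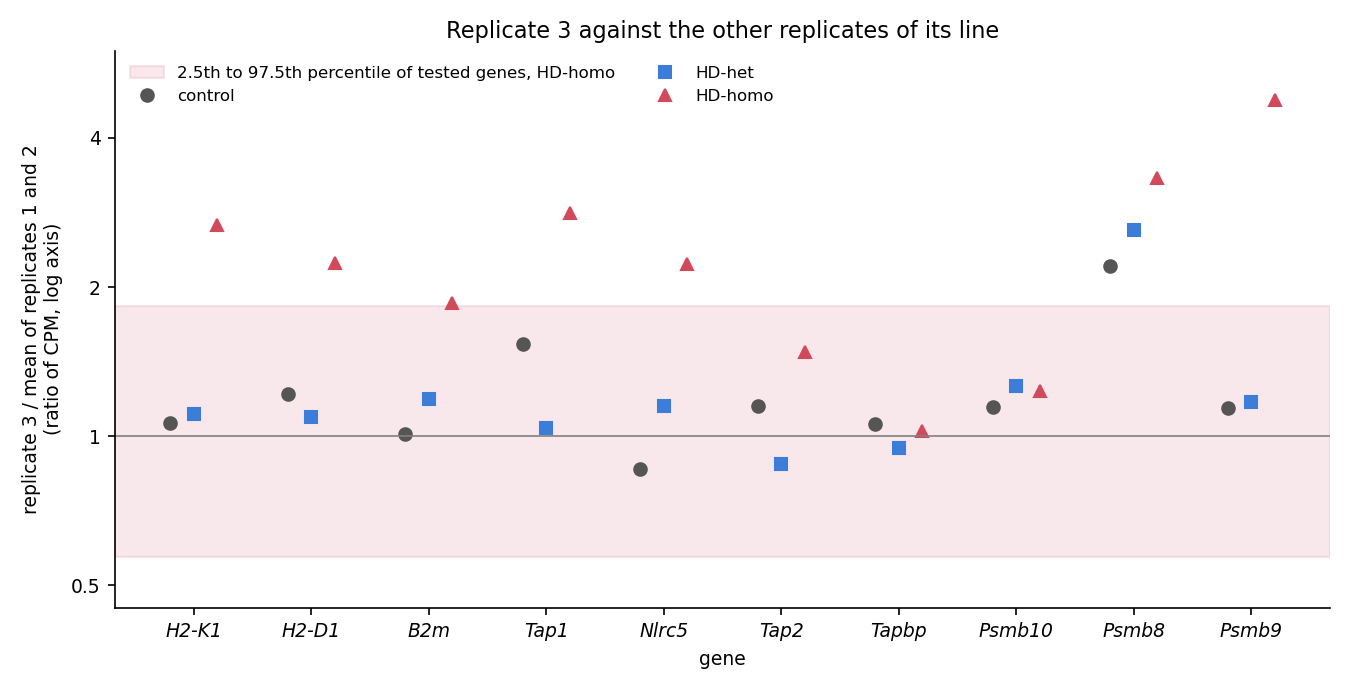
Ratio of replicate 3 to the mean of replicates 1 and 2 (y axis, log scale) for the 10 genes (x axis) in control (circles), HD-het (squares) and HD-homo cells (triangles); the band is the central 95% of all tested genes in HD-homo cells, 0.570 to 1.83. The HD-homo triangles of 7 genes lie above the band (B2m just above it, at 1.85), and those of Tap2, Psmb10 and Tapbp lie inside it.

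The HD-homo libraries lay above the control libraries for each of the 10 members, which was also so for 32.7% of all tested genes. Of the 10 members, 9 passed the filter on low counts, and all 9 rose (edgeR's quasi-likelihood test, Benjamini-Hochberg adjusted p under 0.05 over 13508 genes), from 2.05-fold for *Psmb10* to 8.78-fold for *Nlrc5* and 15.1-fold for the sparsely counted *Psmb8*. *Psmb8* passed the filter only through its HD-homo libraries, the line where it is high, so its calls there are no support. Over all tested genes, 29.6% were called higher and 28.9% lower in HD-homo against control. The median log2 fold change was 1.87 over the members and 0.01 over all tested genes. In HD-het cells, 4 of the 9 tested members rose over control (*B2m*, *H2-D1*, *Tap2* and *Nlrc5*) and the other 5 did not pass the test. Over all tested genes, 33.8% were called higher and 31.4% lower there, so this count is given as a description only. The median was 0.95 over the members and 0.03 over all tested genes. Between the HD lines, 6 members were higher in HD-homo cells and 1, *Tap2*, was lower, against 36% and 35.6% of all tested genes. The median of HD-homo over HD-het was 1.14 over the members and 0.00 over all tested genes. The comparisons share libraries, so their counts are not independent of each other.

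**Figure D2:**
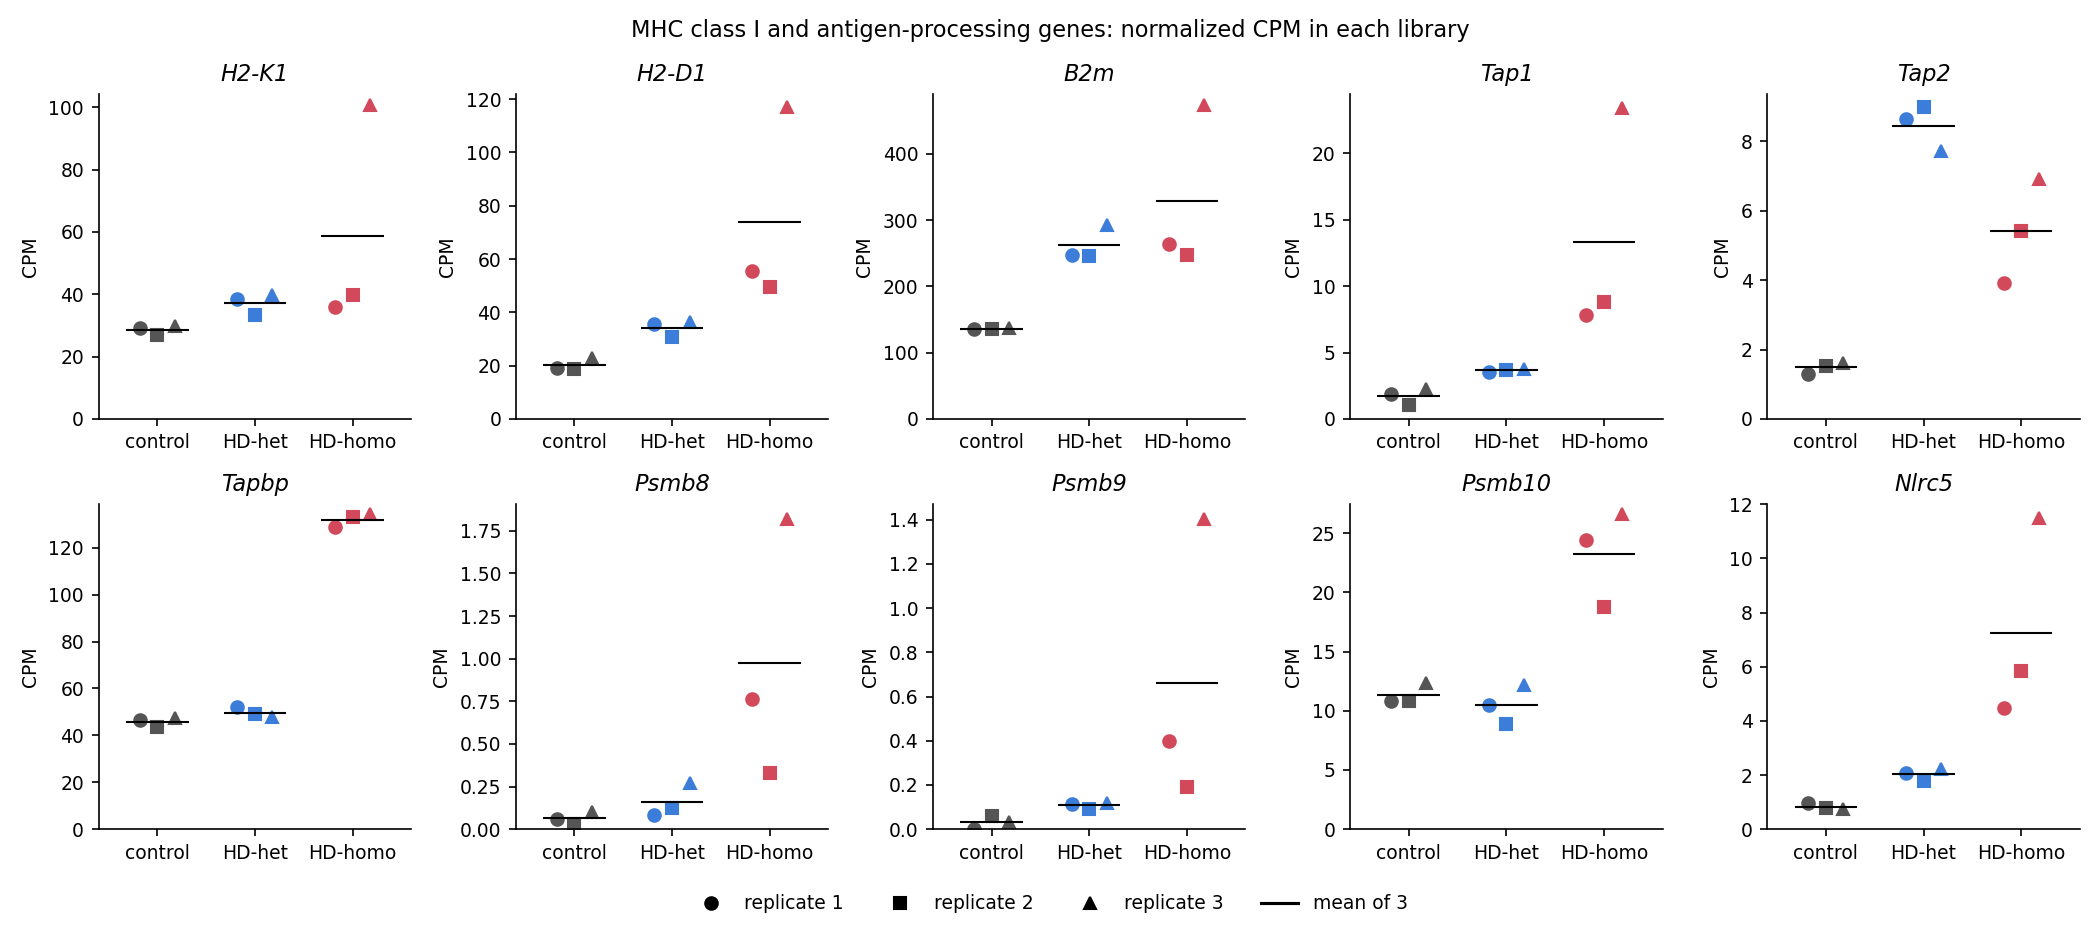
Normalized CPM (y axis, linear, from 0) of the 10 genes in each of the 9 libraries, by line (x axis); circles, squares and triangles are replicates 1, 2 and 3 and the bar is their mean. Tapbp stood at 129 to 134 CPM in HD-homo cells and 43.7 to 51.9 CPM in the other lines, Tap2 was highest in HD-het cells, and for 7 of the genes HD-homo replicate 3 lay well above replicates 1 and 2.

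Without HD-homo replicate 3, all 9 tested members were still called higher in the HD-homo line against control, *Psmb8* among them. The calls of *Psmb8* are no support here either, since it passed the filter only through HD-homo libraries. The log2 differences were 0.40 for *H2-K1* (adjusted p = 0.0034), 0.91 for *B2m*, 1.38 for *H2-D1*, 2.28 for *Tap1*, 2.64 for *Nlrc5* and 3.00 for *Psmb8*. Against HD-het cells, *H2-K1* and *B2m* were then level (0.02, adjusted p = 0.85, and -0.04, adjusted p = 0.67), while *H2-D1* (0.61), *Tap1* (1.18), *Nlrc5* (1.35) and *Psmb8* (1.72) stayed higher. That library also entered the shared estimate of the spread. Without it, or with only the HD-het and control libraries in the fit, 6 members were called higher in HD-het against control, with *H2-K1* (0.38, adjusted p = 0.0019 and 0.0014) and *Tap1* (1.1, adjusted p = 0.00099 and 0.0013) added.

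The classical heavy chains differed from each other in the size of the rise. *H2-D1* was measured at 18.9, 18.6 and 22.8 CPM in control, 35.7, 30.7 and 36.3 CPM in HD-het, and 55.6, 49.3 and 117 CPM in HD-homo cells. The 3 lines did not overlap, and the order was control, HD-het, HD-homo. Its log2 fold change was 1.88 ± 0.27 (SE) for HD-homo against control (adjusted p = 0.00013), 0.77 ± 0.27 for HD-het against control (adjusted p = 0.028) and 1.11 ± 0.26 for HD-homo against HD-het (adjusted p = 0.0028). *H2-K1* was measured at 29.1, 26.9 and 29.8 CPM in control, 38.4, 33.3 and 39.7 CPM in HD-het, and 35.7, 39.7 and 101 CPM in HD-homo cells. Both HD lines lay above control in every library, but the HD lines overlapped each other. For *H2-K1*, HD-homo exceeded control by 1.04 ± 0.31 (log2, adjusted p = 0.015), while the differences of 0.38 ± 0.31 for HD-het against control (adjusted p = 0.31) and 0.66 ± 0.31 for HD-homo against HD-het (adjusted p = 0.076) did not pass the threshold.

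The balance between these heavy chains turned over across the lines. The ratio of *H2-K1* to *H2-D1* counts was 1.54, 1.44 and 1.3 in control, 1.07, 1.08 and 1.09 in HD-het, and 0.643, 0.805 and 0.859 in HD-homo cells. Per kilobase (kb) of annotated exon, *H2-K1* stood at 9.72 ± 0.52 (SD, n = 3) and *H2-D1* at 7.80 ± 0.91 CPM per kb in control cells, and at 19.98 ± 12.4 and 28.7 ± 14.5 CPM per kb in HD-homo cells. These ratios were looked at after the levels were known and carry no test. The genes are also close copies of other class I genes: 9.63% of the 50-base words of *H2-K1* transcripts and 12.8% of those of *H2-D1* occur in transcripts of other genes, so reads could be shared between them in counting.

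*B2m*, the light chain, was the most abundant member in each line, also per kilobase (158 ± 0.92 CPM per kb in control, 305 ± 31.2 in HD-het and 382 ± 147 in HD-homo cells, SD, n = 3). It was measured at 136, 135 and 137 CPM in control, 248, 246 and 293 CPM in HD-het, and 263, 248 and 474 CPM in HD-homo cells. The control libraries agreed closely and lay below all 6 HD libraries, while the HD lines overlapped. *B2m* rose by 1.27 ± 0.20 on the log2 scale in HD-homo (adjusted p = 0.00024) and by 0.95 ± 0.20 in HD-het cells (adjusted p = 0.0015), with a difference of 0.32 ± 0.20 between the HD lines that did not pass (adjusted p = 0.16).

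The sum of both heavy chains was compared with the light chain, since they pair in the complex. Per kilobase, the heavy chain sum amounted to 0.109, 0.104 and 0.119 of *B2m* in control, 0.0934, 0.0814 and 0.0809 in HD-het, and 0.110, 0.113 and 0.145 in HD-homo cells. HD-het lay below both other lines in every library. The log2 ratio of HD-het minus that of control was -0.38 (exact two-sided permutation test, p = 0.10, adjusted p = 0.15 over 3 tests), and HD-homo exceeded HD-het by 0.52 (exact permutation p = 0.10, adjusted p = 0.15). The HD-homo and control values overlapped, with a difference of 0.14 (exact permutation p = 0.40). With 3 libraries against 3, no such test can give a p under 0.10.

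The transporter genes followed different orders. *Tap1* was measured at 1.90, 1.01 and 2.23 CPM in control, 3.52, 3.69 and 3.74 CPM in HD-het, and 7.79, 8.78 and 23.4 CPM in HD-homo cells. The lines did not overlap, and *Tap1* rose by 2.96 ± 0.43 (log2) in HD-homo against control (adjusted p = 0.00012) and by 1.86 ± 0.39 against HD-het (adjusted p = 0.0011). The difference of 1.1 ± 0.45 between HD-het and control lay at the threshold (adjusted p = 0.051). *Tap2*, its partner in the transporter, was measured at 1.31, 1.52 and 1.62 CPM in control, 8.63, 8.99 and 7.73 CPM in HD-het, and 3.92, 5.42 and 6.92 CPM in HD-homo cells. It was the only member with its highest level in HD-het cells, above every HD-homo library. The rise was 2.51 ± 0.20 in HD-het (adjusted p = 1.2e-06) and 1.87 ± 0.21 in HD-homo against control (adjusted p = 1.4e-05), and *Tap2* fell by 0.64 (log2, SE 0.17) from HD-het to HD-homo cells (adjusted p = 0.0065). Per kilobase, *Tap1* and *Tap2* stood at 0.313 ± 0.12 and 0.392 ± 0.04 CPM per kb in control, 0.667 ± 0.02 and 2.23 ± 0.17 in HD-het, and 2.43 ± 1.59 and 1.43 ± 0.40 in HD-homo cells.

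*Tapbp*, which encodes tapasin, rose in HD-homo cells, while its difference between HD-het and control did not pass the threshold. It was measured at 46.4, 43.7 and 47.6 CPM in control, 51.9, 49.2 and 47.7 CPM in HD-het, and 129, 133 and 134 CPM in HD-homo cells. The 3 HD-homo libraries were nearly level, 2.66-fold above HD-het on average, and *Tapbp* had the smallest error of the members. The log2 difference was 1.52 ± 0.06 against control (adjusted p = 2.1e-09) and 1.41 ± 0.06 against HD-het (adjusted p = 2.8e-09), and 0.11 ± 0.06 for HD-het against control (adjusted p = 0.11). *Tapbp* overlaps *Zbtb22* on the same strand, so some reads could belong to either.

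**Figure D3:**
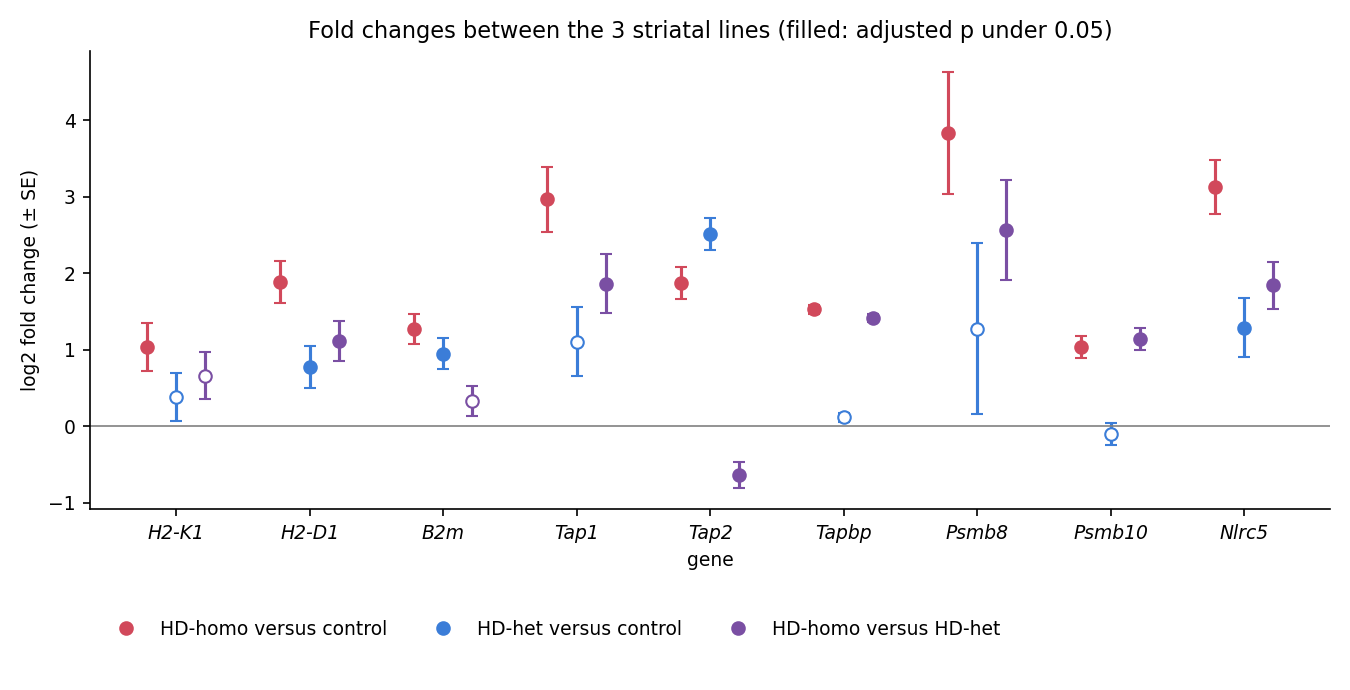
Log2 fold change with its SE (y axis) of the 9 tested genes (x axis) in the 3 comparisons, from edgeR's quasi-likelihood fit; filled points have an adjusted p under 0.05. All 9 points of HD-homo against control are filled and above 0, 4 of HD-het against control are filled, and Tap2 alone lies below 0 with a filled point, at -0.64 between the HD lines.

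Of the inducible proteasome subunits, *Psmb10* was expressed in all lines and *Psmb8* and *Psmb9* were near the counting limit outside HD-homo cells. *Psmb10* (MECL-1) was measured at 10.8, 10.8 and 12.4 CPM in control, 10.5, 8.90 and 12.2 CPM in HD-het, and 24.4, 18.8 and 26.6 CPM in HD-homo cells. HD-homo lay above both other lines, which overlapped, by 1.04 ± 0.14 against control (adjusted p = 8.6e-05) and 1.14 ± 0.14 against HD-het (adjusted p = 2.5e-05). The difference between HD-het and control was -0.10 ± 0.15 (adjusted p = 0.55).

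*Psmb8* (LMP7) had 2, 1 and 3 counts in control, 3, 4 and 9 in HD-het, and 25, 14 and 61 in HD-homo libraries. Every HD-homo library exceeded every other one, while HD-het and control overlapped at 3 counts. *Psmb8* passed the filter on low counts only through the HD-homo libraries. Summed over libraries, 100 counts in HD-homo and 6 in control cells gave a ratio of 14.7 (95% exact counting interval 6.51 to 40.9), and 16 counts in HD-het cells gave 2.5 (0.930 to 7.80). The fitted log2 difference was 3.84 ± 0.80 against control (adjusted p = 0.0016) and 2.56 ± 0.65 against HD-het (adjusted p = 0.0043), and it depends on the prior count at such low numbers.

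*Psmb9* (LMP2) had 0, 2 and 1 counts in control, 4, 3 and 4 in HD-het, and 13, 8 and 47 in HD-homo libraries, and did not pass the filter. The 3 lines did not overlap. The summed counts of 68 in HD-homo and 3 in control cells gave a ratio of 19.9 (95% exact counting interval 6.54 to 99.1), and 11 in HD-het cells gave 3.44 (0.909 to 19.2), an interval that includes equality. The intervals cover counting error only. Fitted without the filter, *Psmb9* in HD-homo cells exceeded control by 4.21 ± 0.93 (log2, adjusted p = 0.0017) and HD-het by 2.54 ± 0.72 (adjusted p = 0.0071). *Tap1* overlaps it on the opposite strand, and whether the counting used strand is not given in the sources used here.

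Set against the constitutive subunits that they replace (*Psmb5*, *Psmb6* and *Psmb7*), the inducible ones remained a small share except for *Psmb10*. Per kilobase and with 0.5 counts added, *Psmb8* amounted to 0.101 to 0.235 per 1000 of *Psmb5* in control, 0.201 to 0.553 in HD-het and 0.731 to 3.76 in HD-homo cells. *Psmb9* amounted to 0.0502 to 0.237 per 1000 of *Psmb6* in control, 0.490 to 0.548 in HD-het and 0.559 to 4.06 in HD-homo cells. *Psmb10* stood at 111 to 116 per 1000 of *Psmb7* in control, 93.5 to 114 in HD-het and 158 to 198 in HD-homo cells. For all 3 pairs, the HD-homo libraries lay above every library of both other lines, with log2 differences against control of 3.33, 3.52 and 0.68 (exact two-sided permutation p = 0.10 each, adjusted p = 0.13 over 9 tests, the smallest p the design allows before adjustment). The differences between HD-het and control were 1.03 for *Psmb8* over *Psmb5* (exact permutation p = 0.20), 2.14 for *Psmb9* over *Psmb6* (exact permutation p = 0.10) and -0.10 for *Psmb10* over *Psmb7* (exact permutation p = 0.30).

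**Figure D4:**
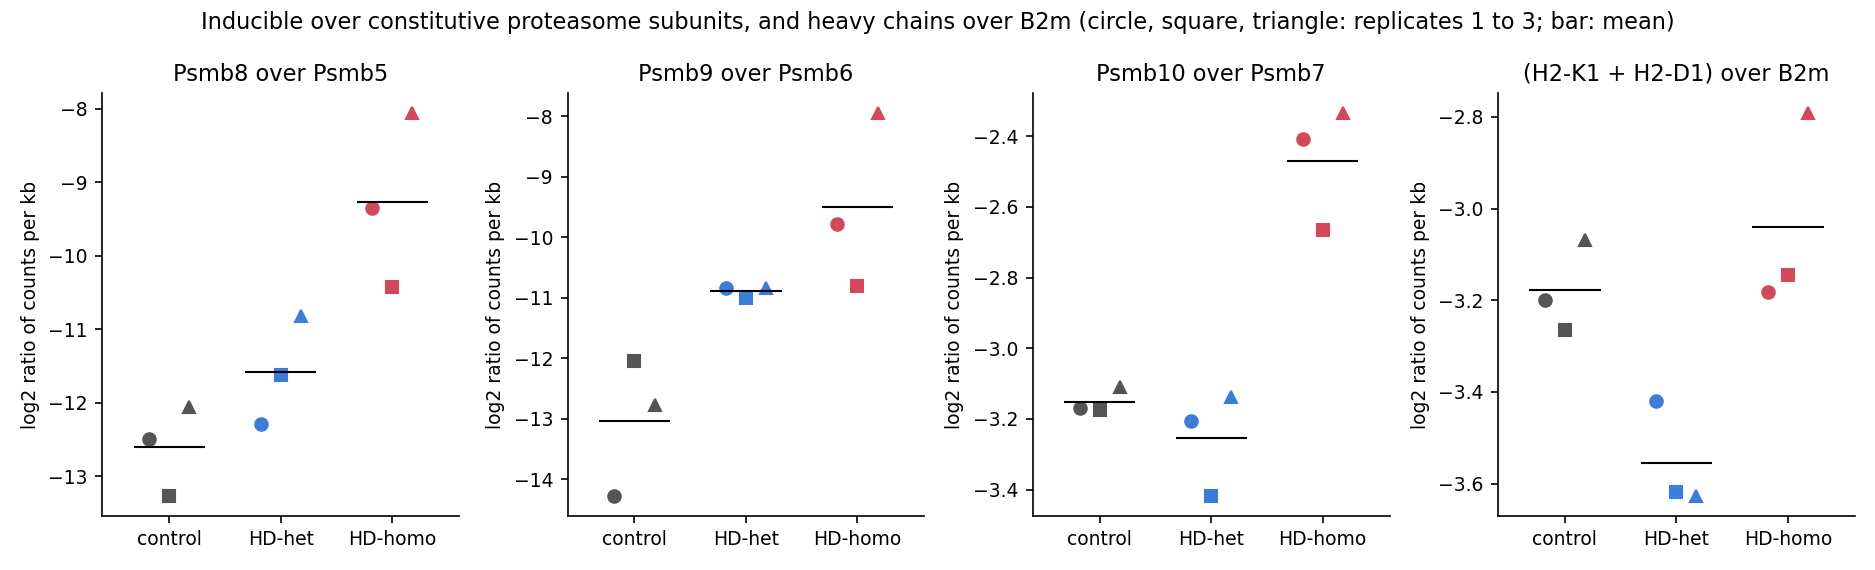
Log2 ratio of counts per kb (y axis) in each library by line (x axis), for the 3 pairs of inducible over constitutive subunit and for the heavy chain sum over B2m; circles, squares and triangles are replicates 1, 2 and 3 and the bar is their mean. The HD-homo points lie above the control points in the 3 proteasome panels (mean difference 3.33, 3.52 and 0.68), and the HD-het points lie lowest in the heavy chain panel.

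*Nlrc5*, the class I transactivator, was measured at 0.964, 0.773 and 0.744 CPM in control, 2.09, 1.77 and 2.22 CPM in HD-het, and 4.48, 5.83 and 11.5 CPM in HD-homo cells. The lines did not overlap, in the order control, HD-het, HD-homo. It rose by 3.12 ± 0.35 (log2) in HD-homo (adjusted p = 1.6e-05) and by 1.29 ± 0.38 in HD-het against control (adjusted p = 0.011), and HD-homo exceeded HD-het by 1.84 ± 0.31 (adjusted p = 0.00022). *Ciita*, the related transactivator of class II genes, reached at most 0.092 CPM in any library.

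The other class I heavy chains of the mouse MHC fell into separate patterns. Of 25 in the table, 13 were tested. In HD-homo against control cells, 9 of them rose and 2 fell (median 1.17), and in HD-het cells 8 rose and the other 5 did not pass the test (median 0.93). Over all tested genes, 29.6% were called higher and 28.9% lower in HD-homo, and 33.8% and 31.4% in HD-het cells. *H2-Q4* had the largest rise in HD-homo cells, from 3.02, 3.39 and 3.45 CPM in control to 7.17, 8.78 and 21.3 CPM in HD-homo cells (1.91 ± 0.35, adjusted p = 0.00064), with HD-het between them at 5.87, 5.40 and 5.87 CPM. The entry *H2-L* had no exon length in GENCODE M21. Its values were 6.44, 6.16 and 6.63 CPM in control, 10.5, 9.11 and 10.7 CPM in HD-het, and 15.5, 13.7 and 33.3 CPM in HD-homo cells. Its counts were between 0.277 and 0.340 of those of *H2-D1* in every library, and those of *H2-Q10* between 0.134 and 0.169, so these cannot be taken as readings independent of *H2-D1*.

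Several nonclassical genes of the T region were highest in HD-het cells. *H2-T22*, whose product binds γδ T cell receptors, was measured at 5.85, 5.95 and 7.27 CPM in control, 18.8, 20.5 and 23.3 CPM in HD-het, and 12.3, 10.3 and 18.5 CPM in HD-homo cells. It rose by 1.72 ± 0.19 in HD-het (adjusted p = 1.5e-05) and 1.11 ± 0.20 in HD-homo cells (adjusted p = 0.00054), and the near copies *H2-T9* and *H2-T10* had the same order. *H2-T23*, which encodes Qa-1, the ligand of the NKG2A receptor of natural killer cells, moved in opposite directions. It was measured at 7.56, 6.36 and 6.66 CPM in control, 23.4, 21.8 and 21.5 CPM in HD-het, and 1.38, 1.33 and 1.40 CPM in HD-homo cells. The 3 lines were far apart: *H2-T23* rose by 1.70 ± 0.09 in HD-het (adjusted p = 6.3e-08), fell by 2.32 in HD-homo (SE 0.11, adjusted p = 1.7e-08), and HD-homo minus HD-het gave -4.02 (adjusted p = 1.2e-10). Summed over all listed heavy chains, *H2-K1* and *H2-D1* included, the rise was 1.31 in HD-homo (adjusted p = 0.0011) and 1.02 in HD-het cells (adjusted p = 0.0043), whereas the sum of *H2-K1* and *H2-D1* alone gave 1.45 (adjusted p = 0.0011) and 0.55 (adjusted p = 0.11).

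**Figure D5:**
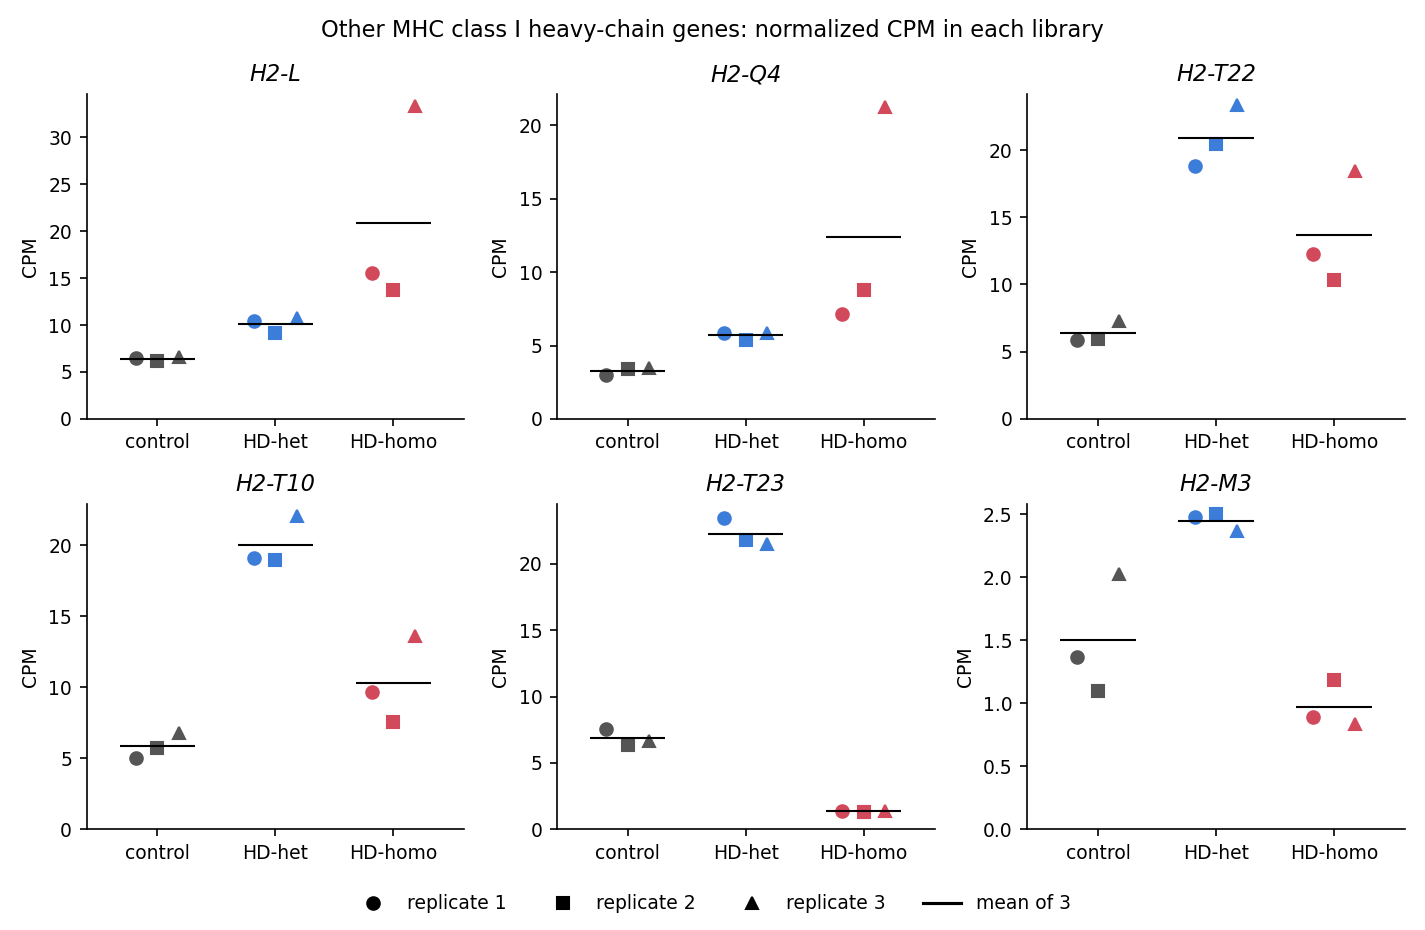
Normalized CPM (y axis, linear, from 0) of 6 other class I heavy-chain genes in each library by line (x axis); circles, squares and triangles are replicates 1, 2 and 3 and the bar is their mean. H2-L and H2-Q4 have their highest level in HD-homo replicate 3 (33.3 and 21.3 CPM), whereas H2-T22, H2-T10, H2-T23 and H2-M3 are highest in HD-het cells, and H2-T23 is at 1.33 to 1.40 CPM in HD-homo cells.

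Among the class I-like molecules, 12 of 14 tested rose and 2 fell in HD-homo against control cells (median 2.66), and 6 rose in HD-het cells (median 0.85). For all tested genes the shares were 29.6% higher and 28.9% lower in HD-homo, and 33.8% higher in HD-het cells. The list holds several near copies of *Raet1*. The largest rise in HD-homo against control was in *Raet1b*, a RAE-1 ligand of the NKG2D receptor, at 0.0311, 0.0297 and 0.101 CPM in control and 1.38, 1.09 and 1.25 CPM in HD-homo cells. Its counts may be shared with any of the other *Raet1* entries. For *Raet1a*, *Raet1b* and *Raet1c*, GENCODE M21 gave no exon length. The control level of *Raet1b* rests on 1 to 3 counts a library. The *Raet1* genes of the list and *H60c* passed the filter on low counts only through the HD-homo libraries. The count of 12 and the median of 2.66 include these genes, whose rises are no support. *H60b*, another NKG2D ligand, was measured at 0.747, 0.862 and 0.609 CPM in control, 1.24, 1.62 and 1.44 CPM in HD-het and 9.35, 12.9 and 6.11 CPM in HD-homo cells (3.67 ± 0.29 for HD-homo against control, adjusted p = 8.3e-07). *Mr1*, which presents vitamin metabolites to MAIT cells, had the largest rise in HD-het cells: it was measured at 0.218, 0.0595 and 0.169 CPM in control, 8.21, 10.12 and 10.45 CPM in HD-het, and 0.736, 0.971 and 0.716 CPM in HD-homo cells (5.99 ± 0.27 for HD-het against control, adjusted p = 1.6e-08). *Cd1d2*, a lipid-presenting molecule, fell by 1.39 in HD-homo (adjusted p = 0.011) and rose by 1.83 in HD-het cells (adjusted p = 0.00015). *Fcgrt*, the neonatal Fc receptor that also pairs with *B2m*, rose in both (1.51 and 1.75, adjusted p = 1.2e-06 and 4.8e-07).

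Of 12 genes of the general loading machinery of the endoplasmic reticulum, 4 rose and 1 fell in HD-homo cells (median 0.10, against 29.6% and 28.9% of all tested genes), and 7 rose in HD-het cells (median 0.28, against 33.8% of all). *Erap1*, which trims peptides to the length that class I molecules bind, had the largest rise in HD-homo cells: it was measured at 14.1, 13.9 and 14.3 CPM in control, 21.1, 21.3 and 22.9 CPM in HD-het, and 28.6, 30.4 and 32.1 CPM in HD-homo cells. The libraries of each line agreed, without overlap between lines, and *Erap1* rose by 1.1 ± 0.07 in HD-homo (adjusted p = 1.6e-07) and 0.62 ± 0.07 in HD-het cells (adjusted p = 1.8e-05). The chaperone gene *Calr* differed by 0.34 in HD-homo (adjusted p = 0.0030) and by 0.01 in HD-het cells (adjusted p = 0.90), *Pdia3* (ERp57) rose by 0.19 and 0.45 (adjusted p = 0.013 and 2.6e-05), and *Canx* fell by 0.24 in HD-homo cells (adjusted p = 0.0036). *Tapbpl*, the tapasin-related editor, differed by 0.31 in HD-homo (adjusted p = 0.12) and rose by 0.52 in HD-het cells (adjusted p = 0.014). *Hspa5* (BiP) had the highest mean of the list over the 9 libraries and rose by 0.42 and 0.33 (adjusted p = 0.00035 and 0.0014).

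On the proteasome side, the constitutive subunit *Psmb5* differed by 0.08 in HD-homo and 0.05 in HD-het cells (adjusted p = 0.42 and 0.58). *Psmb6* differed by 0.13 in HD-homo (adjusted p = 0.10) and fell by 0.49 in HD-het cells (adjusted p = 6.8e-05), and *Psmb7* rose by 0.34 in HD-homo cells (adjusted p = 0.0013). Of the 10 activator and assembly genes, 5 rose and 1 fell in HD-homo cells, while 3 rose and 4 fell in HD-het cells. The shares of all tested genes were 29.6% and 28.9% in HD-homo, and 33.8% and 31.4% in HD-het cells. The subunits of the PA28 activator, which opens the proteasome for peptide production, were both higher in HD-homo cells. *Psme1* was measured at 18.9, 17.8 and 23.1 CPM in control, 19.9, 17.5 and 17.4 CPM in HD-het, and 31.5, 33.0 and 29.1 CPM in HD-homo cells (0.65 ± 0.10 for HD-homo against control, adjusted p = 0.00023). *Psme2* was measured at 12.9, 13.4 and 14.4 CPM in control, 16.4, 16.9 and 16.8 CPM in HD-het, and 30.6, 29.8 and 28.1 CPM in HD-homo cells (1.12 ± 0.07, adjusted p = 1.4e-07). *Psme2b*, a copy of *Psme2* with which it may share reads, rose by 1.16. *Psme3*, the nuclear PA28γ, fell by 0.67 in HD-het cells (adjusted p = 1.2e-05), and *Psme4* fell by 0.18 in HD-homo cells (adjusted p = 0.042). In the list of 9 cytosolic peptidases, 3 rose and 4 fell in HD-homo cells, against 29.6% and 28.9% of all tested genes. *Blmh* was up by 0.42 (adjusted p = 0.00018) and *Ide* down, with a difference of -0.47 (adjusted p = 9.7e-06). *Tpp2*, with the highest mean over the 9 libraries, differed by 0.03 (adjusted p = 0.73).

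Of the 17 tested regulators known to act at class I promoters, 7 rose and 3 fell in HD-homo cells (median 0.09), and 4 rose and 6 fell in HD-het cells (median 0.07). Among all tested genes, 29.6% rose and 28.9% fell in HD-homo, and 33.8% rose and 31.4% fell in HD-het cells. *Irf9*, an interferon-signalling gene, had the largest rise in HD-homo cells, from 5.94, 5.77 and 4.43 CPM in control through 9.90, 9.82 and 8.72 CPM in HD-het to 25.8, 20.3 and 33.2 CPM in HD-homo cells (2.29 ± 0.18 for HD-homo against control, adjusted p = 7.1e-07). It shared the order of the lines with *H2-D1*, *Tap1* and *Nlrc5*. *Irf1*, another activator of the pathway, moved in opposite directions: it rose by 0.43 ± 0.13 in HD-homo (adjusted p = 0.014) and fell by 0.80 in HD-het cells (SE 0.14, adjusted p = 0.00032), although its HD-homo and control libraries overlapped. *Nfkb1*, with the highest mean of the list over the 9 libraries, rose by 0.19 and fell by 0.40 (adjusted p = 0.011 and 7.8e-05). *Rfx5*, which recruits NLRC5 to DNA together with *Rfxank* and *Rfxap*, differed by 0.09 and -0.23 (adjusted p = 0.45 and 0.063), and *Rfxank* fell by 0.34 in HD-homo cells (adjusted p = 0.0093).

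Most MHC class II genes were low. Of 12 in the table, 9 stayed under 1 CPM in every library, the α and β chain genes *H2-Aa* and *H2-Ab1* among them. The 4 tested were *H2-DMa*, *H2-DMb1*, *H2-DMb2* and *Cd74*. *H2-DMa*, which encodes a chain of the class II peptide editor, was at 3.14 to 4.16 CPM in control, 4.61 to 5.27 CPM in HD-het and 3.25 to 3.68 CPM in HD-homo cells. *H2-DMb1* was measured at 0, 0.0297 and 0.0338 CPM in control, 0.226, 0.427 and 0.120 CPM in HD-het, and 1.26, 2.51 and 1.85 CPM in HD-homo cells, an order shared by *H2-DMb2* at lower levels. *Cd74*, the invariant chain gene, was at 0.467 to 0.947 CPM in control, 0.150 to 0.183 CPM in HD-het and 0.889 to 1.28 CPM in HD-homo cells.

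The members varied together over the 9 libraries to different degrees, most closely *H2-D1* with *Tap1* (Pearson r = 0.98 of log2(CPM + 0.5)) and least *Tap2* with *Psmb10* (r = 0.14). The mean profile of the 9 tested members was compared with that of 9261 other genes with a mean of at least 10 CPM. Among the 5 genes most like it were *H2-L* (r = 0.990), *Rab14* (0.986), *Usp4* (0.984) and *Emc3* (0.984). *H2-L* is not independent of the profile, since its counts followed those of the member *H2-D1*. The others changed little: mean levels in control and HD-homo cells were 203 and 264 CPM for *Rab14*, 121 and 159 CPM for *Usp4*, and 100 and 115 CPM for *Emc3*. The likeness is one of shape over 9 libraries that share 3 lines, and is given as a description.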

How the data were processed

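Poly(A) RNA of the 3 lines was sequenced from directional libraries (3 per line). The authors deposited 1 table of gene counts, whole numbers with no normalization. The submitters' processing notes name cutadapt, Bowtie 1.1.2, RSEM 1.3.0, DESeq2, GRCm38.p5 and mm10 without roles, so the deposited counts may be rounded RSEM estimates, which split reads among near-identical genes. Of 36410 listed genes, 26 symbols read as dates and 2 symbols are duplicated.

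Counts were tested with edgeR 4.0.16 in R 4.3.3 (limma 3.58.1; TMM, filterByExpr with a minimum of 10 counts, glmQLFit and glmQLFTest) on all 9 libraries with 1 mean per line, and p-values were adjusted by Benjamini-Hochberg over 13508 genes. Every adjusted p of a gene in the text is from this edgeR test unless another is named. SE is the size of the log2 fold change divided by the square root of F. The script was tested on simulated counts. Within a line, all 9 pairs of libraries differed by more than sampling noise (chi-square of 2.19 to 38.9 per degree of freedom), so no pair was merged as 1 library deposited more than once. Exon lengths came from GENCODE M21. Ratios had 0.5 counts added and an exact permutation test (scipy 1.17.1). Alternatives were other scalings, filters and thresholds, DESeq2 1.42.0, only the lines compared, a replicate block and leaving out each library.

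The members and lists were chosen with earlier results of these data known. All members were described. From each list of more than 5 tested genes, the largest increase and decrease in HD-homo against control and the gene with the highest mean over the 9 libraries were named, from shorter pathway lists every tested gene, and besides these *Calr*, *Canx*, *Pdia3*, *Erap1*, *Tapbpl*, *Psme1*, *Psme2*, *Irf1*, *Rfx5* and the 5 genes of most similar profile. *H60b*, *H60c*, *Mr1*, *Map2*, *Tubb3*, *Meis2*, *H2-L*, *H2-M3*, *H2-Q10*, *H2-T9*, *H2-T10* and the genes called in opposite directions were named after their values were seen. Lists of immune, neuronal, mesenchymal, endothelial and glial markers and of MHC class II genes served to check the cells. Some genes that this rule names are not reported here.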

Additional observations from a re-analysis of the deposited data

Results flagged for a closer look

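Of 91 tested pathway genes outside the marker lists, 8 were called in opposite directions in the HD lines, each also called between them by edgeR's quasi-likelihood test. None of the 10 members did so. The share of all tested genes called in opposite directions is not given here, so the 8 are only a description. Calls were common: 29.6% of all tested genes were higher and 28.9% lower in HD-homo cells. In HD-het cells these shares were 33.8% and 31.4%. Those above control in HD-het and below it in HD-homo cells had log2 differences, HD-homo minus HD-het, of -4.02 for *H2-T23* (adjusted p = 1.2e-10), -1.32 for the heavy chain gene *H2-M3* (adjusted p = 0.00030), -2.48 for *Cd1d1* (adjusted p = 2.9e-06) and -3.21 for *Cd1d2* (adjusted p = 4.2e-06). Those below control in HD-het and above it in HD-homo cells had differences of 0.79 for the proteasome assembly gene *Psmg1* (adjusted p = 4.3e-05), 1.1 for *Atf1* (adjusted p = 3.0e-08), 1.24 for *Irf1* (adjusted p = 8.0e-06) and 0.59 for *Nfkb1* (adjusted p = 2.4e-06). The HD-homo and control libraries overlapped for *H2-M3* (-0.60, adjusted p = 0.050), *Cd1d1* and *Irf1*, and the HD-het and control libraries for *Psmg1*.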

How the results depend on the processing

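Under every alternative run, 8 to 10 members were called higher in HD-homo against control, 10 where *Psmb9* passed the filter. Where *Psmb8* and *Psmb9* passed a filter, they did so only through HD-homo libraries, so their calls in these counts are no support. In HD-het against control the count of 4 became 2 at an adjusted p under 0.01 (27.3% of all tested genes), and also 2 where a log2 difference of 1 or more was required (12% of all). With that size limit *Tap2* was not called lower in HD-homo against HD-het (0 members, 14% of all). Leaving out each library gave 9 to 10 members called higher in HD-homo against control, 3 to 6 in HD-het against control and 6 to 9 between the HD lines. *H2-D1* lost its call in HD-het against control without HD-het replicate 1 or 3 or control replicate 1 or 2 (adjusted p = 0.066 to 0.080), and *Tap1* gained one there without any one HD-homo library (adjusted p = 0.00099 to 0.038). Between the HD lines, *H2-K1* gained a call without HD-homo replicate 1 (0.92) or 2 (0.88). The direction turned for 2 values near 0, which were not called: with each library left out in turn, *Psmb10* in HD-het against control ran from -0.22 to 0.0029 (without HD-het replicate 2), and *B2m* between the HD lines from -0.040 (without HD-homo replicate 3) to 0.49 (without HD-homo replicate 2, adjusted p = 0.031). Whether the replicate numbers pair the libraries was not established: no label says so and correlations of same-numbered deviations ran from -0.01 to 0.15, though 15 of 18 checks put a library closest to its own number, a hint from the data. With a replicate block, 9, 5 and 6 members were called higher, *Tap1* being added in HD-het against control (1.15, adjusted p = 0.015).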
